A study of Mus musculus with 2 samples.

Results

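The genes described are 8 cathepsins (Ctsa, Ctsb, Ctsc, Ctsd, Ctsh, Ctsl, Ctss and Ctsz) and 2 cystatins (Cst3 and Cstb), chosen by name: 10 of the 34745 genes listed in the deposited files. They were measured by RNA sequencing in 2 libraries of peritoneal macrophages from C57BL/6 mice, 1 labelled Kdm2b-/- (KO) and 1 labelled wild type (WT). The cells of both libraries had been drawn into the peritoneum by thioglycollate, an irritant broth, given 4 days earlier, and both had been exposed to 100 ng/ml of lipopolysaccharide (LPS), for which the labels give 4 h in one field and 3 h in another. No untreated library was used here, so every value is a level in LPS-treated cells. The labels do not state how the Kdm2b allele was made, in which cells it is lost, or how many mice were pooled.

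Cathepsins are the main proteases of the lysosome. Most are cysteine proteases of the papain family, Ctsd is an aspartic protease and Ctsa a serine carboxypeptidase. They are made as inactive precursors, sorted to endosomes by mannose 6-phosphate receptors, and cut to active forms in acid compartments. Cystatins are tight-binding inhibitors of the cysteine cathepsins: Cst3 (cystatin C) is secreted, and Cstb (stefin B) stays in the cytosol and nucleus. Macrophages use these enzymes to digest engulfed material and to prepare antigen for class II molecules.

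The targeted gene, Kdm2b, was not lower in the library labelled KO. It (ENSMUSG00000029475, chromosome 5) stood at 0.326 FPKM in the library labelled KO against 0.205 FPKM in WT, about 45 fragments against 29. The counting interval of the log2 ratio, taken without a pseudocount, was -0.05 to 1.38. With 1 FPKM added to each value the log2 ratio was 0.14. FPKM are fragments scaled to transcript length and library size. A gene-level value does not show which exons the fragments came from. Sex-linked transcripts differed: Xist, made from the inactive X chromosome, stood at 0.00398 FPKM in the library labelled KO against 8.55 FPKM in WT, and the Y-linked gene Eif2s3y stood at 10.2 FPKM in the library labelled KO against 0 in the WT library. With 1 library per label, differences by genotype, by sex and by animal cannot be told apart, and no difference below has a replicate check or a p-value. The estimated depth was 26800000 fragments in the library labelled KO and 27300000 in the WT library. Of 9 macrophage markers 8 passed the floor of 1 FPKM in the mean of both libraries, with a sum of 14209 FPKM in the library labelled KO against 11924 FPKM in WT. Lyz2 made up most of it, and without it the other 8 summed to 2800 FPKM in the library labelled KO against 2978 FPKM in WT. Cd14, at 905 FPKM in the library labelled KO against 1136 FPKM in WT, weighs heavily in that second sum. By log2 ratio of FPKM + 1, the library labelled KO over WT, 5 of the 8 markers past the floor were above 0 and 3 below. Their median was 0.14, against 0.10 over all genes past the floor.

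Short stretches of promoter are shown for the members whose upstream sequence holds CACGTG, the palindromic core of the element through which TFEB and related factors act on lysosomal genes. RefSeq promoter sequence (GRCm38.p6) was at hand for 7 of the 10 members, and the 250 bases before the gene start were searched. The stretches below are written 5′ to 3′ on the strand of the gene, with the motif in capitals and its distance to the RefSeq start counted from its first base.
Ctsd, chr7:142388055-142388077, minus strand, 245 bases before the RefSeq start: tccccCACGTGacctgtatccag
Ctsd, chr7:142387908-142387937, minus strand, 98 bases before the RefSeq start: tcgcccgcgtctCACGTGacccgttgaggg
Ctsa, chr2:164833749-164833772, plus strand, 12 bases before the RefSeq start: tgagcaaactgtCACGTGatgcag
Ctsl, chr13:64370739-64370768, minus strand, 236 bases before the RefSeq start: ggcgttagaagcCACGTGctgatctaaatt
These RefSeq starts lie inside the genes as GENCODE draws them, by 211 bases for Ctsd, 900 bases for Ctsa and 370 bases for Ctsl. Set against the GENCODE starts, the first Ctsd match is 34 bases upstream, and the other 3 lie within the gene, 113 bases in for Ctsd, 888 bases in for Ctsa and 134 bases in for Ctsl. Ctsa has 2 RefSeq starts, and its match precedes the one further downstream. The motif was thus found in 3 of 7 members, against 6.86% of the 27025 genes in the RefSeq table and 5 of 24 other lysosomal enzyme genes that were listed for comparison. The sequence TATAAA, searched on both strands, was found upstream of 1 of the 7, Ctss, on the opposite strand, against 14.3% of all genes in the table. A match of letters is a description of the sequence and does not show binding. The 3 genes with CACGTG did not lie together in the comparison of the libraries: Ctsd had the highest log2 ratio of the 10 members, Ctsl the lowest and Ctsa one near 0.

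These genes were among the most abundant transcripts of the cells. Together the 10 held 6.12% of the FPKM sum in the library labelled KO and 6.25% in the WT library. Ctss, an endopeptidase that remains active at neutral pH and trims the class II invariant chain, led in both, at 6052 FPKM in the library labelled KO against 5895 FPKM in WT, and ranked 7 among all genes in the library labelled KO and 8 in the WT library. Ctsd followed, at 5525 FPKM in the library labelled KO against 5141 FPKM in WT, at rank 9 in both. Ctsb, Ctsl, Cstb and Ctsz lay between 1979 and 3112 FPKM in the library labelled KO and between 2107 and 4575 FPKM in the WT library. Cst3 was lower still, and Ctsa, Ctsh and Ctsc ranged from 54.8 to 158 FPKM in the library labelled KO and from 51.9 to 154 FPKM in the WT library. FPKM is per transcript length, so these levels can be set side by side only as far as the length assumed for each gene holds. All 10 members passed the floor. The libraries are of bulk RNA, in which fewer cells of a type and less RNA per cell cannot be told apart.

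**Figure D1:**
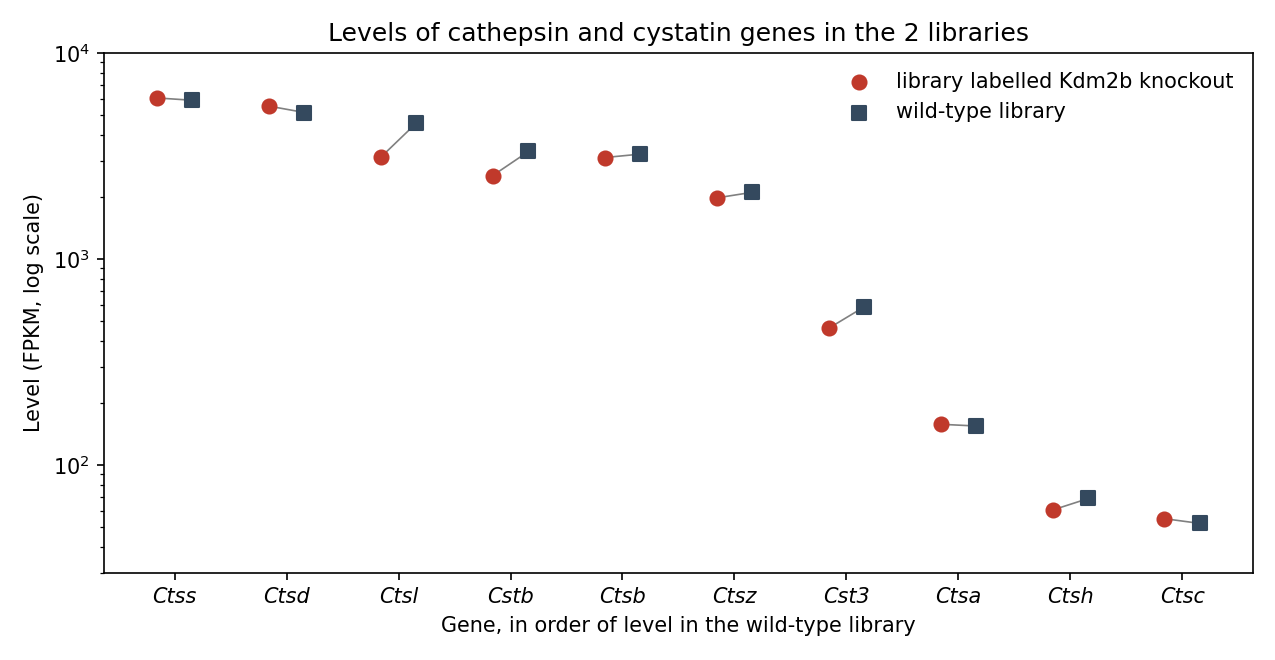
Level of each of the 10 genes in FPKM (log axis) in the library labelled Kdm2b knockout (circles) and the WT library (squares), joined by a line; there is 1 library per label and no error bar. Ctsl shows the widest step, at 3112 FPKM in the library labelled KO against 4575 FPKM in WT.

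The order of the levels differed between the libraries in 1 place. In the library labelled KO Ctsl and Ctsb stood level, with 95% counting intervals of 3097 to 3127 FPKM and 3097 to 3116 FPKM, and both lay above Cstb. In the WT library Ctsl lay above Cstb, and Cstb at 3326 FPKM above Ctsb at 3229 FPKM. All other neighbours in the order, in either library, had intervals that did not overlap. Such intervals hold counting error only and treat each fragment as an independent molecule. Copies made by PCR are not independent, so the intervals can be too narrow. They say nothing of the spread between mice. Cstb and Ctsb also differ in length, at 603 and 4743 bases. As deposited their log2 ratios were -0.39 and -0.06. With the median of genes of similar longest transcript taken off, they were -0.12 and -0.26, so the change of order depends on the length correction.

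None of the 10 members was 2-fold apart between the libraries. Differences are given as log2 ratios of FPKM + 1, the library labelled KO over WT, and at least 2-fold was the size used for counting. Of 9039 genes past the floor 1.88% were that far apart, and 0 of the 10 members were. In each direction the share was 0.863% higher and 1.02% lower in the library labelled KO. At 1.5-fold it was 7.5% of all genes, 4.7% higher and 2.8% lower, and again 0 of the 10. Of the members 4 lay above 0 and 6 below, with a median of -0.07, against 0.10 over all genes past the floor. Among the 899 genes averaging 50 FPKM or more, as every member did, the median was -0.13. The members thus ran from -0.56 to 0.10, and their median lay between those of all genes and of abundant genes.

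**Figure D2:**
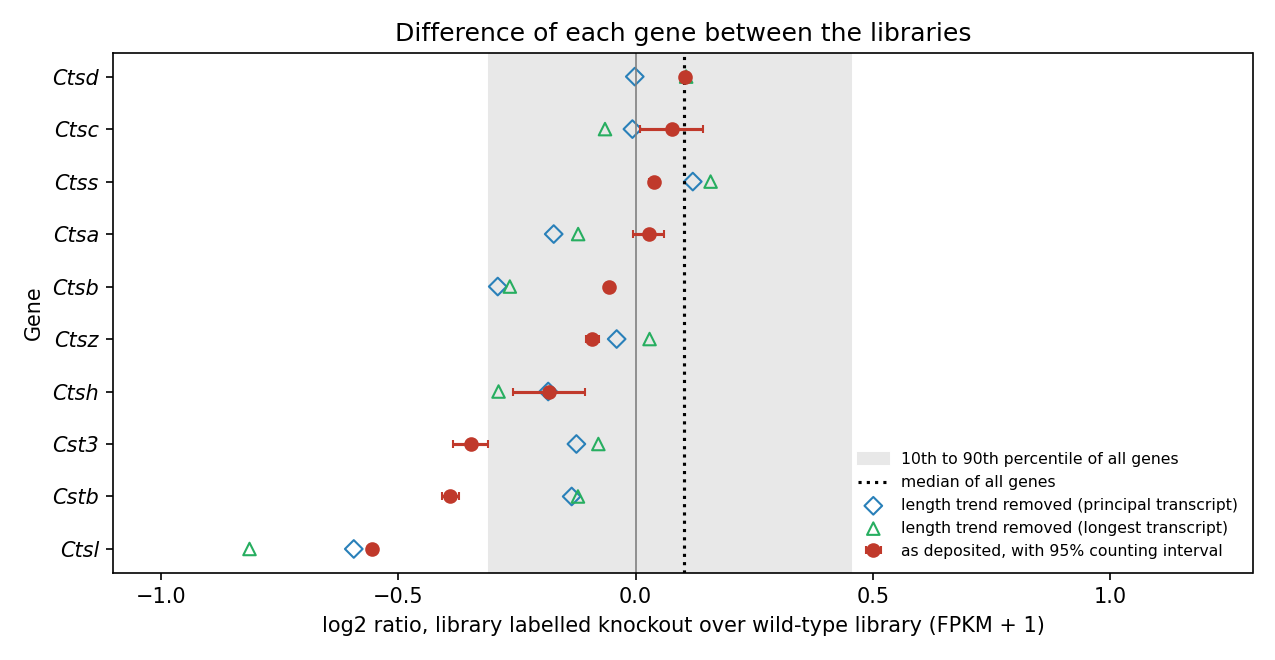
Log2 ratio of FPKM + 1, library labelled KO over WT library, for each gene: filled circles with 95% counting intervals as deposited, open symbols after taking off the median of genes of similar transcript length. The grey band runs from the 10th to the 90th percentile of all genes past the floor, -0.31 to 0.45. The dotted line is their median. As deposited, Ctsl, Cstb and Cst3 lie to the left of the band. Among genes averaging 50 FPKM or more these percentiles were -0.44 and 0.28 (not drawn), and of the members only Ctsl lies outside them.

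Ctsl, a broad lysosomal endopeptidase, showed the largest difference. It stood at 3112 FPKM in the library labelled KO against 4575 FPKM in WT, 0.680 times as much, for a log2 ratio of -0.56 with a counting interval of -0.56 to -0.55. About 164431 fragments in the library labelled KO and 245921 in the WT library lay behind these values, taking the shortest transcript tagged as principal by APPRIS as its length. Of all genes past the floor 3.13% had a lower log2 ratio. Ctsl was under the 1.5-fold limit as deposited and past it in 5 alternatives of scaling or length correction, where its lowest value was -0.81. The gene (ENSMUSG00000021477) lies on chromosome 13 at 64359337 to 64370890 on the minus strand, and its exons overlap the same-strand model Gm49230 and the opposite-strand model Gm47123, whose reads could not be told from its own. Compared within each library, where scaling has no part, the level of Ctsl was 0.514 times that of Ctss in the library labelled KO and 0.776 times in the WT library. Against Ctsb the same ratio was 1.002 in the library labelled KO and 1.42 in the WT library, and against Ctsd it was 0.563 in the library labelled KO and 0.89 in the WT library.

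The other cysteine cathepsins were close between the libraries. Ctsb, which cuts both inside proteins and from their carboxyl end, stood at 3107 FPKM in the library labelled KO against 3229 FPKM in WT (log2 ratio -0.06), and its exons overlap those of Fdft1 on the opposite strand. Ctsz, a carboxypeptidase also called cathepsin X, stood at 1979 FPKM in the library labelled KO against 2107 FPKM in WT (-0.09), and its exons overlap those of Nelfcd on the opposite strand. Ctss had a log2 ratio of 0.04. Each of these 3 took values on both sides of 0 over the 9 settings of scaling, pseudocount and length correction, so none has a settled direction. Ctsh, an aminopeptidase, stood at 60.4 FPKM in the library labelled KO against 68.7 FPKM in WT (-0.18), and was below 0 in all 9. Ctsc, the dipeptidyl peptidase that activates granule serine proteases, stood at 54.8 FPKM in the library labelled KO against 51.9 FPKM in WT (0.08), and ran from -0.06 to 0.17 over the 9 settings, so it has no settled direction either. The proteases that Ctsc activates were hardly present: of the 6 listed, 0 passed the floor. As a sum the 6 cysteine cathepsins were at 14364 FPKM in the library labelled KO against 15926 FPKM in WT, a difference of -1562 FPKM, of which Ctsl alone gave -1463 FPKM.

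The aspartic and serine members also stood close. Ctsd (ENSMUSG00000007891, chromosome 7, 142375911 to 142388038) had the highest log2 ratio of the 10, at 0.10, close to the median of all genes. Its exons overlap the same-strand model Gm49369. Ctsa, which also protects the lysosomal enzymes Neu1 and Glb1 from breakdown, stood at 158 FPKM in the library labelled KO against 154 FPKM in WT (0.03), with a counting interval of -0.00 to 0.06. Over the 9 settings Ctsd ran from -0.02 to 0.20 and Ctsa from -0.18 to 0.12. Its exons overlap those of Pltp and Neurl2 on the opposite strand, and no strand marking is described for these libraries. The partners of Ctsa were close as well: Glb1 stood at 59.3 FPKM in the library labelled KO against 60.5 FPKM in WT, and Neu1 at 11.6 FPKM in the library labelled KO against 12.7 FPKM in WT.

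Both cystatins were lower in the library labelled KO, by amounts close to each other. Cstb (ENSMUSG00000005054, chromosome 10, 78425669 to 78427622) stood at 2537 FPKM in the library labelled KO against 3326 FPKM in WT, a log2 ratio of -0.39 with a counting interval of -0.41 to -0.37. Cst3 (ENSMUSG00000027447, chromosome 2, 148871722 to 148875692) stood at 460.2 FPKM in the library labelled KO against 586 FPKM in WT, a log2 ratio of -0.35 with an interval of -0.38 to -0.31. The level of Cstb was 5.51 times that of Cst3 in the library labelled KO and 5.68 times in the WT library. The 2 cystatins together came to 0.209 of the summed level of the 6 cysteine cathepsins in the library labelled KO and 0.246 in the WT library. That ratio was not corrected for the trend with transcript length given below, and both cystatins, at 603 and 860 bases, are shorter than each of the 6. It is thus not read as a change of balance between inhibitor and protease. Both cystatins lay below 0 in all 9 settings, but were no lower than -0.18 in the 3 settings that remove the trend with length.

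Transcript length moved with these differences. Over all genes past the floor, the median log2 ratio was -0.27 in the shortest of 20 equal bins of length, up to 868 bases, and 0.29 in the longest, from 7554 bases. Cstb, with 603 bases, and Cst3, with 860 bases, were both in the shortest bin, and with the median of that bin taken off they stood at -0.12 and -0.08. For Ctsl the correction depends on the transcript assumed. With the longest annotated transcript, of 6168 bases, the ratio became -0.81, and with the shortest principal one, of 1971 bases, it became -0.59. Ctsl was thus below genes of like length under either choice. Ctss moved to 0.16 and Ctsb to -0.26 with the longest transcripts. The source of the trend was not tested.

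**Figure D3:**
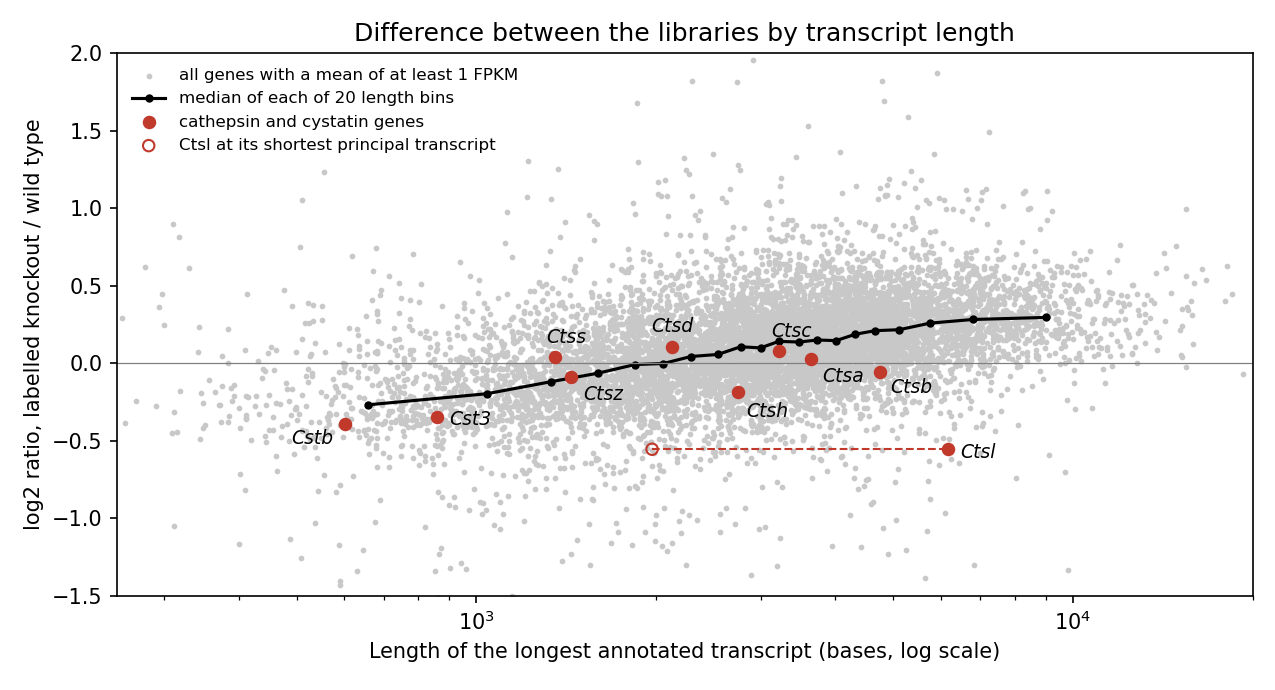
Log2 ratio of FPKM + 1, library labelled KO over WT library, against the length of the longest annotated transcript (log axis) for all genes past the floor (grey), the medians of 20 length bins (black) and the 10 members (red); the open circle places Ctsl at 1971 bases, and 52 of 9017 genes lie outside the axes. Cstb and Cst3 lie near the black line at its left end, and Ctsl lies below it at both lengths.

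Other cathepsins and cystatins past the floor were few, and none was 2-fold apart. Of 15 other cathepsin genes listed, 10 were at 0 in both libraries and 3 passed the floor. Ctsk, a collagen-degrading cathepsin best known from osteoclasts, was the most abundant of these, at 408 FPKM in the library labelled KO against 546 FPKM in WT (log2 ratio -0.42). It lies on chromosome 3 at 95499256 to 95509362, 17423 bases from Ctss, and the ratio of Ctsk to Ctss within a library was 0.0675 in the library labelled KO and 0.0927 in the WT library. Ctsf stood at 1.57 FPKM in the library labelled KO against 2.80 FPKM in WT (-0.57), and Ctso at 10.0 FPKM in the library labelled KO against 10.4 FPKM in WT (-0.04). Of 20 further cystatins and kininogens found, 12 were at 0 in both libraries. The 2 past the floor were Cst7 (cystatin F, which acts inside endosomes on cathepsins such as Ctsc), at 12.3 FPKM in the library labelled KO against 16.4 FPKM in WT (-0.39), and the stefin Stfa3, at 0.815 FPKM in the library labelled KO against 1.34 FPKM in WT (-0.36). Stfa3 passed the floor only through its WT value, so its direction is not read with the others. Among the 15 cathepsin and cystatin genes past the floor, members included, Cst7, Cstb and Cst3 ran from -0.39 to -0.35 as deposited. With the length trend removed by longest transcripts, Cst7 was at -0.19, Cstb at -0.12, Stfa3 at -0.09 and Cst3 at -0.08.

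Genes that sort and mature cathepsins had no settled direction as a list, and none was 2-fold apart. Of 12 measured, 8 were above 0 and 4 below, with a median of 0.16 against 0.10 over all genes; it was 0.020 with the length trend removed by longest transcripts and -0.0094 by principal ones. Nagpa, which uncovers the mannose 6-phosphate tag, stood at 9.07 FPKM in the library labelled KO against 5.41 FPKM in WT (0.65), and Gnptab, which encodes subunits of the enzyme that adds it, at 10.1 FPKM in the library labelled KO against 6.63 FPKM in WT (0.55). The sorting receptor gene Sort1 had a log2 ratio of 0.45 and Grn, the progranulin gene, one of 0.41. Lgmn, the asparaginyl endopeptidase that cuts cathepsins to their mature chains, was close, at 769 FPKM in the library labelled KO against 798 FPKM in WT (-0.06). Psap, the precursor of the saposins, stood at 3894 FPKM in the library labelled KO against 3446 FPKM in WT (0.18). The ratio of Ctsl to Psap was 0.799 in the library labelled KO and 1.33 in the WT library.

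Serpins, another family of protease inhibitors, went both ways. Of 6 measured in a list drawn up as cathepsin inhibitors, 1 was at least 2-fold lower and 1 at least 2-fold higher, against 1.02% lower and 0.863% higher over all genes. Serpinb1a, which inhibits neutrophil serine proteases such as cathepsin G, stood at 6.85 FPKM in the library labelled KO against 15.7 FPKM in WT (-1.09), or -0.80 with a pseudocount of 5. Serpinf1 stood at 10.1 FPKM in the library labelled KO against 4.42 FPKM in WT (1.04); it encodes pigment epithelium-derived factor, a serpin not known as a protease inhibitor, and it was under 2-fold with a pseudocount of 5, with the libraries scaled to a median of 0 or to equal upper quartiles, and with the length and GC trends removed. Serpinb6a (-0.25) and Serpinb9 (0.23) were closer.

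The rest of the lysosome gave values around 0, and the list medians of its enzymes and membrane genes took either sign over the scalings. Of 29 other lysosomal enzyme genes, 18 were above 0 and 11 below, with a median of 0.04 and 0 at least 1.5-fold apart. Gm2a, the GM2 ganglioside activator, stood at 111 FPKM in the library labelled KO against 158 FPKM in WT (-0.51), Acp5, the tartrate-resistant acid phosphatase, at 367 FPKM in the library labelled KO against 500.1 FPKM in WT (-0.45), and Idua had a log2 ratio of -0.48. Gaa, the acid alpha-glucosidase, stood at 17.1 FPKM in the library labelled KO against 12.4 FPKM in WT (0.44). The 9 lysosomal membrane genes had a median of 0.03, with Npc1 at 0.46, Cd63 at -0.40, Slc17a5 at -0.31 and Tmem192 at -0.22. Of the transcription factors of lysosomal genes, Tfeb was under the floor, at 0.583 FPKM in the library labelled KO against 0.37 FPKM in WT, and Tfec was the lowest of the 4 past it (-0.50), with Tfe3 at 0.35, Mitf at 0.32 and Zkscan3 at 0.19. With the length trend removed by longest transcripts, Tfec was at -0.64, Tfe3 at 0.07, Mitf at 0.10 and Zkscan3 at -0.06, and the median of the 4 was 0.0019, against 0.26 as deposited.

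Class II genes, whose products are loaded in compartments where Ctss and Ctsl act, were lower in the library labelled KO: of 6, 2 were at least 2-fold lower and 4 at least 1.5-fold lower, against 1.02% and 2.8% of all genes. H2-Eb1 stood at 14.7 FPKM in the library labelled KO against 44.6 FPKM in WT (log2 ratio -1.54), and H2-Aa at 14.1 FPKM in the library labelled KO against 32.1 FPKM in WT (-1.13). H2-Aa was under 2-fold with a pseudocount of 5 (-0.96) and with the length trend removed by principal transcripts (-0.99), which leaves 1 of the 6 at least 2-fold lower. Cd74, the invariant chain that these proteases trim, stood at 32.9 FPKM in the library labelled KO against 59.3 FPKM in WT (-0.83), and H2-Ab1 had a log2 ratio of -0.71. H2-DMa and H2-DMb1 were closer between the libraries, at -0.17 and -0.18. B cells also express these genes, and the 6 B cell markers listed summed to 2.86 FPKM in the library labelled KO against 27.3 FPKM in WT. The part of B cells in the class II values was not tested.

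**Figure D4:**
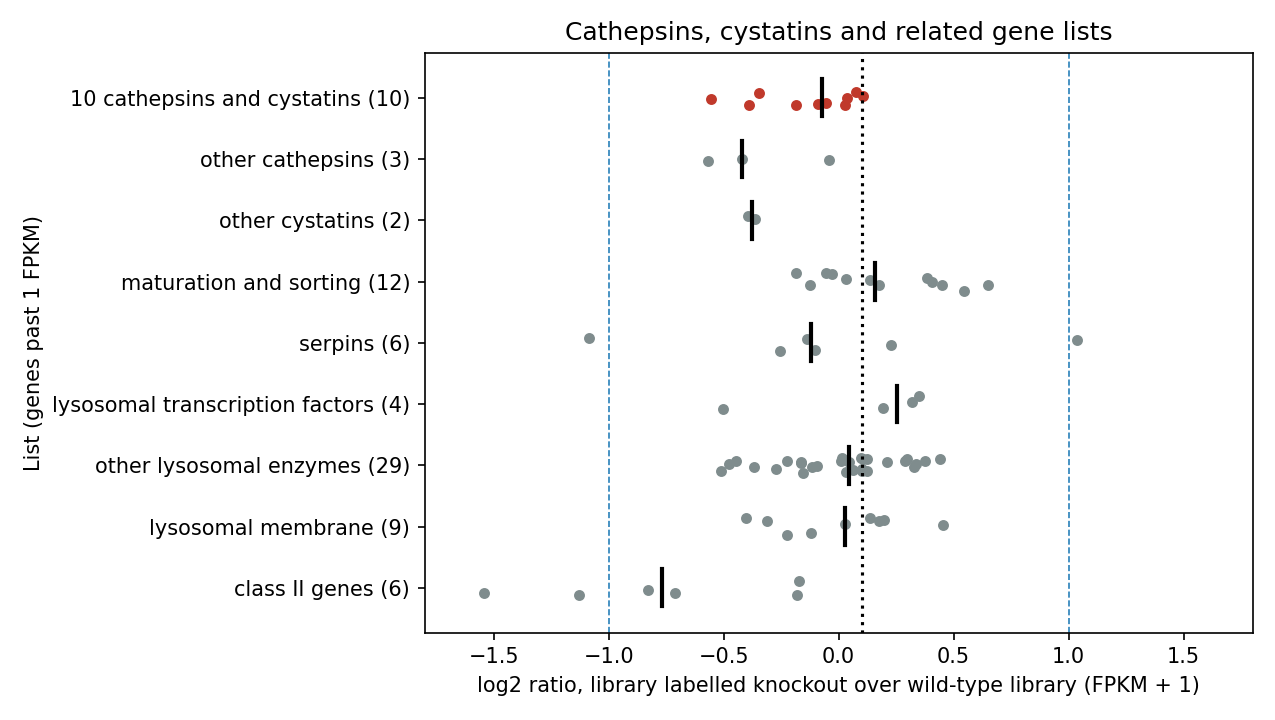
Log2 ratio of FPKM + 1, library labelled KO over WT library, for every gene past the floor in each list (points, spread at random in height), with the median of each list (bar), the median of all genes (dotted) and the 2-fold limits (dashed). The 10 members (red) lie between -0.56 and 0.10, and points beyond the 2-fold limits occur in the serpin and class II lists.

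Markers of other cells differed between the libraries. Of 6 B cell markers 2 passed the floor, Igkc and Ighm, both lower by 2-fold or more, against 1.02% of all genes. Ighm passed only through its WT value, at 0.992 FPKM in the library labelled KO against 6.92 FPKM in WT, so its direction is tied to the floor. All 8 mesothelial and stromal markers passed the floor, 6 above 0 and 2 below, and 2 were at least 2-fold higher, against 0.863% of all genes. These were Col1a1, at 15.98 FPKM in the library labelled KO against 3.63 FPKM in WT, and Col1a2, at 24.2 FPKM in the library labelled KO against 9.67 FPKM in WT. Msln (-0.50) and Krt19 (-0.31) were lower. The list summed to 353 FPKM in the library labelled KO against 316 FPKM in WT, mostly from Dcn, at 251 FPKM in the library labelled KO against 248 FPKM in WT; without Dcn the sum was 103 FPKM in the library labelled KO against 68.3 FPKM in WT. Of 5 T and NK cell markers 4 were at 0 in both libraries and none passed the floor. Of 6 neutrophil markers 3, Ly6g among them, were at 0 in both and 1 passed, with a sum of 15.1 FPKM in the library labelled KO against 14.3 FPKM in WT, and the 5 dendritic cell markers were all under the floor. Of 5 eosinophil and mast cell markers 1 passed, Siglecf, at 0.533 FPKM in the library labelled KO against 1.58 FPKM in WT. It too passed only through its WT value. Fibroblasts also express Ctsl, Ctsk and Cst3. The part of these cells in the values above was not tested.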

How the data were processed

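Per the file headers, the authors deposited FPKM by Ensembl gene, 1 value for each library. Tools listed are StringTie 1.3.0, HISAT2 2.0.4 and edgeR, with the builds mm10 and GRCm38.p4, per the submitters' processing notes, which give neither roles nor filters. FPKM depends on the length assumed and on the most abundant genes. Symbols, positions and lengths came from GENCODE M21 (GRCm38): 34267 IDs matched and 478 did not, and values of 17 symbols with several IDs were summed. Depth was estimated from steps in FPKM times length among genes with 1 transcript (92.6% and 92.2% of low values were whole within 0.02 fragments, in the library labelled KO and the WT library). Log2 ratios used a pseudocount of 1 FPKM and a floor of 1 FPKM on the mean. Intervals are exact 95% Clopper-Pearson (ratios, without a pseudocount) or Poisson (levels). With 1 library per group no test was made. The log2 ratio and its length correction were tested on simulated data, to a tolerance wider than the log2 ratios of most members. The depth estimate, fragment numbers and intervals were not tested in that way. Members and lists were chosen with earlier results of these data known. All 10 members, the other cathepsins and cystatins past the floor, and up to 4 genes per list with the largest ratios were named by rule. Lgmn, Psap, Glb1, Neu1, Tfeb, H2-DMa, H2-DMb1, the sex-linked genes and single markers were named after their values were seen. Alternatives were pseudocounts of 0.1 and 5, 3 scalings, floors of 5 or none, folds of 1.5 and 4, and removal of length and GC trends in 20 bins; lengths of principal transcripts and a background of genes at 50 FPKM or more were added after seeing the data. Python 3.11.15, pandas 2.3.3 and scipy 1.17.1 were used.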

Additional observations from a re-analysis of the deposited data

How the results depend on the processing

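The count of members at least 2-fold apart was 0 in each direction in every alternative run, including 1.5-fold and 4-fold limits. Ctsl was the 1 member past 1.5-fold lower in 5 alternatives (scaling to a median of 0 or to equal upper quartiles, and all 3 removals of the length trend); its log2 ratio ran from -0.81 to -0.46. The member median of -0.07 became -0.20 with the libraries scaled to a median of 0 and 0.020 with equal totals, where the median of all genes was 0.18, against 0.10 as deposited. Of the related genes, 1 was 2-fold higher and 3 were 2-fold lower as reported, against 0.863% and 1.02% of all genes. The related genes past the floor were 29 other lysosomal enzymes, 12 sorting and maturation genes and 9 membrane genes. The rest were 6 serpins, 6 class II genes, 4 transcription factors, 3 other cathepsins and 2 other cystatins. A 1.5-fold limit gave 2 higher and 5 lower, against 4.7% and 2.8% of all genes. A pseudocount of 5 gave 0 higher and 1 lower, and removal of the length trend by principal transcripts gave 1 higher and 2 lower. None of the related genes was 2-fold higher with a median of 0, equal upper quartiles or the length and GC trends removed. The summed share of the 10 members was 6.83% in the library labelled KO and 6.94% in the WT library without mitochondrial genes, and 3.90% in the library labelled KO and 4.42% in the WT library without the 10 most abundant genes of either library, which takes out Ctss and Ctsd. No paired analysis was possible because each group holds 1 library. Lists other than the members also moved: the median of the other lysosomal enzymes ran from -0.10 to 0.14, that of the membrane genes from -0.10 to 0.12, and that of the class II genes from -0.89 to -0.65. Each member's value rests on an estimated 2617 fragments or more, so the lack of replicates limits it more than depth does. Scaling and length correction limit it too: each member's log2 ratio moved by more than its counting error in at least 4 alternatives.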
